A study of Mus musculus with 9 samples.

Results

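RNA of NIH 3T3 cells, an immortalised line of mouse embryonic fibroblasts, was compared between a first hairpin against Cnksr2 (shCNKSR2_1) and a control hairpin (shControl). The comparison used 6 of the 9 libraries of the series, 3 of each hairpin, and every one of the 10340 genes in the deposited expression table. Both groups were grown as monolayers on plastic, were infected with lentivirus and were selected for its expression. The shCNKSR2_1 cultures carried a short hairpin RNA directed at Cnksr2, and the shControl cultures carried one directed at red fluorescent protein, a gene that these cells lack. Each group had 3 independent cultures, and the other 3 libraries carried a second Cnksr2 hairpin and were used for the estimate of spread. The study asks which transcripts change when Cnksr2 is targeted. Cnksr2 itself was not analysed here, so the degree of knockdown is not known, and within a comparison of 1 hairpin the effect of less Cnksr2 and any other effect of that hairpin cannot be told apart.

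Cnksr2 encodes CNK2, a scaffold protein that binds members of the Ras signalling pathway at the cell membrane and is best known from neurons. In fibroblasts, Ras signalling runs through RAF, MEK and ERK to a set of rapidly induced genes, several of which encode proteins that dampen the pathway. A second route, NF-kB, drives chemokine and acute phase genes and also its own inhibitors, so that levels of those inhibitors move with its activity.

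Levels are given in FPKM, which corrects fragments for library size and transcript length, and every gene in the table was above 1 FPKM in all 9 libraries. The depth of the libraries is unknown. A gene is said to have risen, fallen or changed where the adjusted p of its log2(FPKM + 1) difference, shCNKSR2_1 minus shControl, was under 0.05. Differences are given on that scale with their standard error, and they understate the ratio of weakly expressed genes. The first replicate of shCNKSR2_1 stood apart from the other two. On the log2(FPKM + 1) scale it lay at least 1.25-fold from the mean of its group's other libraries for 299 genes. This count was 110 and 77 for replicates 2 and 3, and 44, 43 and 34 for the shControl libraries. Results that rest on replicate 1 are therefore given with and without it.

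With shCNKSR2_1, 3396 of 10340 genes changed (32.8%), of which 1405 were higher (13.6%) and 1991 lower (19.3%). Most changes were small. At least a 1.5-fold change on the log2(FPKM + 1) scale was seen in 231 genes (2.23%), 113 higher (1.09%) and 118 lower (1.14%). On the same scale a 2-fold change was seen in 59 genes, 17 higher and 42 lower, and a 4-fold change in 9 genes, 1 higher and 8 lower. Weakly expressed genes with larger ratios in FPKM can be left out of these counts. Vip (1.93) and Enpp2 (-1.93) were under 4-fold on that scale and past it in FPKM. The excess of lower genes depended on scaling: median-ratio rescaling of the libraries gave 1794 higher (17.4%) and 1564 lower genes (15.1%). Removal of a trend on transcript GC content gave 2107 higher (20.5%) and 2005 lower (19.5%) of 10288, and removal of the trend shared by neighbouring genes on a chromosome gave 3337 changed genes (32.4% of 10302), 1805 higher (17.5%) and 1532 lower (14.9%). Without replicate 1, 3894 genes changed (37.7%). With replicate 1 as the only shCNKSR2_1 library 1860 did (18%), 800 higher and 1060 lower.

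**Figure D1:**
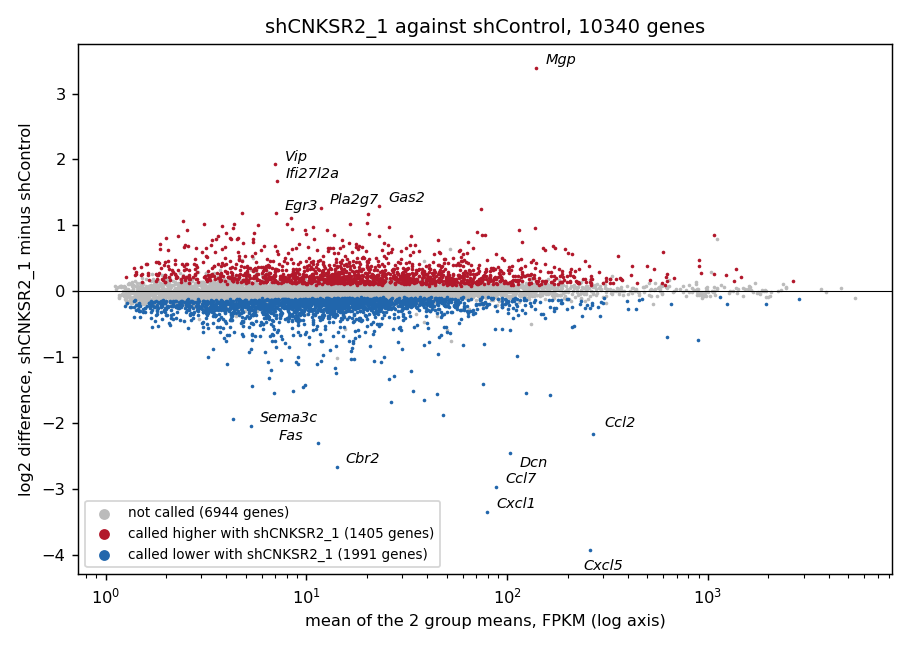
Each point is 1 of 10340 genes, with its mean level in FPKM on a log axis and its log2 difference, shCNKSR2_1 minus shControl. Red points are the 1405 genes that were higher and blue points the 1991 that were lower. The named genes are among the farthest from 0, with Mgp at 3.39 and Cxcl5 at -3.93.

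The labelled cell type was checked first. Of 14 fibroblast markers 13 were in the table, and their summed level was 7772 to 7977 FPKM with shCNKSR2_1 and 7003 to 7273 FPKM with shControl. Of 12 epithelial markers 0 were in the table. Of 12 endothelial markers the table held 1, and of 12 macrophage markers 2, which summed to 7.94 to 8.97 FPKM with shCNKSR2_1 and 7.47 to 8.52 FPKM with shControl. It also held 2 of 12 neuronal and 5 of 12 adipocyte markers, the latter at 28.5 to 33.6 FPKM with shCNKSR2_1 and 33.8 to 35.6 FPKM with shControl. The muscle markers Acta2, Tagln and Tnnt2, 3 of 12, summed to 135.4 to 150.6 FPKM with shCNKSR2_1 and 115.5 to 128.4 FPKM with shControl. Fibroblast markers went both ways, 3 higher and 3 lower. Thy1, a surface glycoprotein, had 171, 137 and 144 FPKM with shCNKSR2_1, against 77.01, 76.2 and 80.9 FPKM with shControl (0.93 ± 0.07, adjusted p = 3.54e-06). The platelet-derived growth factor receptors fell, Pdgfra by 0.43 and Pdgfrb by 0.35. Prrx1, a homeobox factor of mesenchyme, fell by 0.35. In bulk libraries such as these, fewer cells that express a gene and less RNA per cell cannot be told apart.

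Chemokines held the farthest changes downward. Of 8 measured, 5 fell and 1 rose, with a median difference of -1.92 beside -0.02 over all genes. Cxcl5, which attracts neutrophils, had 35, 28 and 30.7 FPKM with shCNKSR2_1, against 502, 489 and 475 FPKM with shControl (-3.93 ± 0.06, adjusted p = 2.02e-11). Cxcl1, of the same function, had 14.2, 12.4 and 13.7 FPKM with shCNKSR2_1, against 148, 142 and 147 FPKM with shControl. Ccl2, which attracts monocytes, had 90.1, 103 and 98.7 FPKM with shCNKSR2_1, against 438, 452 and 429 FPKM with shControl (-2.17 ± 0.05, adjusted p = 2.92e-10). In each of them every shCNKSR2_1 library lay far below every shControl library, and the 3 shCNKSR2_1 libraries lay close together. Ccl7, a relative of Ccl2, fell by 2.97, and Cxcl12, a stromal chemokine that retains blood progenitors, fell by 1.68. The member that rose was Cx3cl1, a chemokine anchored in the membrane, with 6.56, 4.97 and 5.33 FPKM with shCNKSR2_1, against 2.70, 2.84 and 2.84 FPKM with shControl (0.80 ± 0.07, adjusted p = 2.25e-05). Groups that did not overlap were found for 4571 genes (44.2%), so a gap between the groups is by itself common here.

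Genes of the NF-kB pathway fell as well, 12 of 19 lower and 0 higher, with 8 to 10 lower when any 1 library was left out and 8 under median-ratio rescaling. The named members that fell are a subunit and atypical or classical inhibitors. Nfkbia, the classical inhibitor IkB-alpha, had 17.3, 19.9 and 21.6 FPKM with shCNKSR2_1, against 44.8, 45.6 and 49.2 FPKM with shControl (-1.21 ± 0.07, adjusted p = 6.04e-07). Nfkbiz, an atypical nuclear IkB protein, had 5.41, 4.36 and 4.37 FPKM with shCNKSR2_1, against 14.7, 14.3 and 14.7 FPKM with shControl. Bcl3, another nuclear IkB protein, had 4.29, 2.35 and 3.41 FPKM with shCNKSR2_1, against 8.97, 9.08 and 10.98 FPKM with shControl. The groups lay apart for all of them, with replicate 1 of shCNKSR2_1 lowest for Nfkbia and highest for Nfkbiz and Bcl3. Relb, a subunit of the alternative pathway, fell by 0.79.

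Promoter sequences are shown for 3 genes that fell and that carry the kappa-B motif, the sequence NF-kB binds, upstream of their start. The sequences are those of RefSeq on GRCm38.p6, each the 250 bases before the start, 5′ to 3′ on the strand of the gene, with the motif in capitals and overlapping matches joined. Cxcl1 lies on the plus strand at chr5:90890995-90891244, Nfkbia on the minus strand at chr12:55492648-55492897 and Chil1 on the plus strand at chr1:134181906-134182155.
Cxcl1: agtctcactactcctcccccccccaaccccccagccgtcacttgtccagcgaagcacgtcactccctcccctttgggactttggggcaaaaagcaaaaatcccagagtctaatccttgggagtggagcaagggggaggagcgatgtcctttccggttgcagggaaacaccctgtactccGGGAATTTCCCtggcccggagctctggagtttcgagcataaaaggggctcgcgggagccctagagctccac
Nfkbia: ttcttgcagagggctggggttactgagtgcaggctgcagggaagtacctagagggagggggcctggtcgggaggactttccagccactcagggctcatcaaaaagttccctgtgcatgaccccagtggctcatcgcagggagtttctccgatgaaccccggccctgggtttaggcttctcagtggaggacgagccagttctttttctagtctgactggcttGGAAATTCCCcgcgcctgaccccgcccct
Chil1: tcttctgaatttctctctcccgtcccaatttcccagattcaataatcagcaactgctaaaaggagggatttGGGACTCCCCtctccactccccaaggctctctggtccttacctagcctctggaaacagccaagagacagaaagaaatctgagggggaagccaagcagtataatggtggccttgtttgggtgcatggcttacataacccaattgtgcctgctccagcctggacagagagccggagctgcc
The capitals begin at -71, -29 and -179 counted from the start. Searched on both strands from 250 bases before to 50 after the start, the motif was found in 10 of 20 chemokine and NF-kB genes with a promoter in the table, and in 1018 of 8327 measured genes (12.2%). Cxcl1 was the only chemokine among those 10, and the rest were NF-kB pathway genes. The 20 included genes that did not fall. Elsewhere the kappa-B motif was found in 3 of 19 genes of cholesterol synthesis and uptake (15.8%) and 1 of 15 ERK feedback genes (6.67%). The motif was found for Cxcl1, Chil1 and Ptx3 among 10 of the 15 genes farthest down, and in 0 of 9 of the 15 farthest up. A match describes these letters and is not a measured binding site.

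Complement and acute phase genes, which encode plasma proteins of innate immunity, had 7 of 9 members lower and 1 higher, with a median of -1.07. C1s1, a protease of the first complement component, had 26.1, 15.4 and 14.1 FPKM with shCNKSR2_1, against 57.9, 59.95 and 56.8 FPKM with shControl (-1.65 ± 0.17, adjusted p = 4.00e-05). Its near-identical copy C1s2 fell by 1.51, and fragments are hard to assign between them. Ptx3, the long pentraxin that binds microbes, had 86.5, 49.9 and 56.4 FPKM with shCNKSR2_1, against 191, 173 and 191 FPKM with shControl (-1.55 ± 0.16, adjusted p = 4.00e-05). Ceruloplasmin (Cp), a copper-carrying ferroxidase, had 26.8, 19.6 and 20.2 FPKM with shCNKSR2_1, against 67.9, 68.3 and 64.9 FPKM with shControl (-1.57 ± 0.09, adjusted p = 9.47e-07). In these genes replicate 1 of shCNKSR2_1 lay between the shControl libraries and replicates 2 and 3. The list's median was -0.71 in replicate 1, -1.28 in replicate 2 and -1.21 in replicate 3, each set against the shControl mean. Cd55, which restrains complement on cell surfaces, rose, with 8.68, 6.45 and 7.09 FPKM with shCNKSR2_1, against 3.33, 3.59 and 3.76 FPKM with shControl (0.87 ± 0.08, adjusted p = 2.75e-05). Chil1, a secreted chitinase-like protein, fell by 1.88.

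Interferon-inducible genes were mixed, with 3 of 23 higher and 8 lower, a share called of 47.8%. Ifi27l2a, an interferon-induced mitochondrial membrane protein, had 13.8, 9.38 and 10.9 FPKM with shCNKSR2_1, against 3.18, 2.48 and 2.94 FPKM with shControl (1.67 ± 0.12, adjusted p = 3.29e-06). Gbp2, a guanylate-binding protein, had 2.76, 1.97 and 1.86 FPKM with shCNKSR2_1, against 4.10, 3.84 and 3.70 FPKM with shControl (-0.62 ± 0.10, adjusted p = 0.000693). The antiviral membrane proteins Ifitm3 and Ifitm2 fell by 0.53 and 0.38. Ifi27l2a thus lay well above every shControl library while the others named lay below. With replicate 1 as the only shCNKSR2_1 library 3 of 23 were lower, and without it 10 were. Ifitm2 did not pass in replicate 1 alone (-0.24, adjusted p = 0.0519).

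Enzymes of prostaglandins and other lipid mediators counted 7 higher and 3 lower of 13. Ptgs2, the inducible cyclooxygenase, had 151, 214 and 185 FPKM with shCNKSR2_1, against 93.4, 97.9 and 87.8 FPKM with shControl (0.96 ± 0.10, adjusted p = 4.08e-05). Ptgr1, a reductase that inactivates prostaglandins and leukotrienes, had 58.95, 80.1 and 75.4 FPKM with shCNKSR2_1, against 45.4, 45.9 and 45.2 FPKM with shControl. Pla2g7, which breaks down platelet-activating factor, had 15.5, 18.01 and 17.7 FPKM with shCNKSR2_1, against 6.72, 6.58 and 6.15 FPKM with shControl (1.27 ± 0.06, adjusted p = 1.07e-07). For all of them the groups were apart, with replicate 1 the lowest of the shCNKSR2_1 libraries. Enpp2, the enzyme autotaxin that makes lysophosphatidic acid, went the other way, with 1.07, 1.35 and 1.20 FPKM with shCNKSR2_1, against 7.10, 7.97 and 7.19 FPKM with shControl. Those shCNKSR2_1 values lie just above the lower limit of the table, and its difference was -1.93 ± 0.06.

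**Figure D2:**
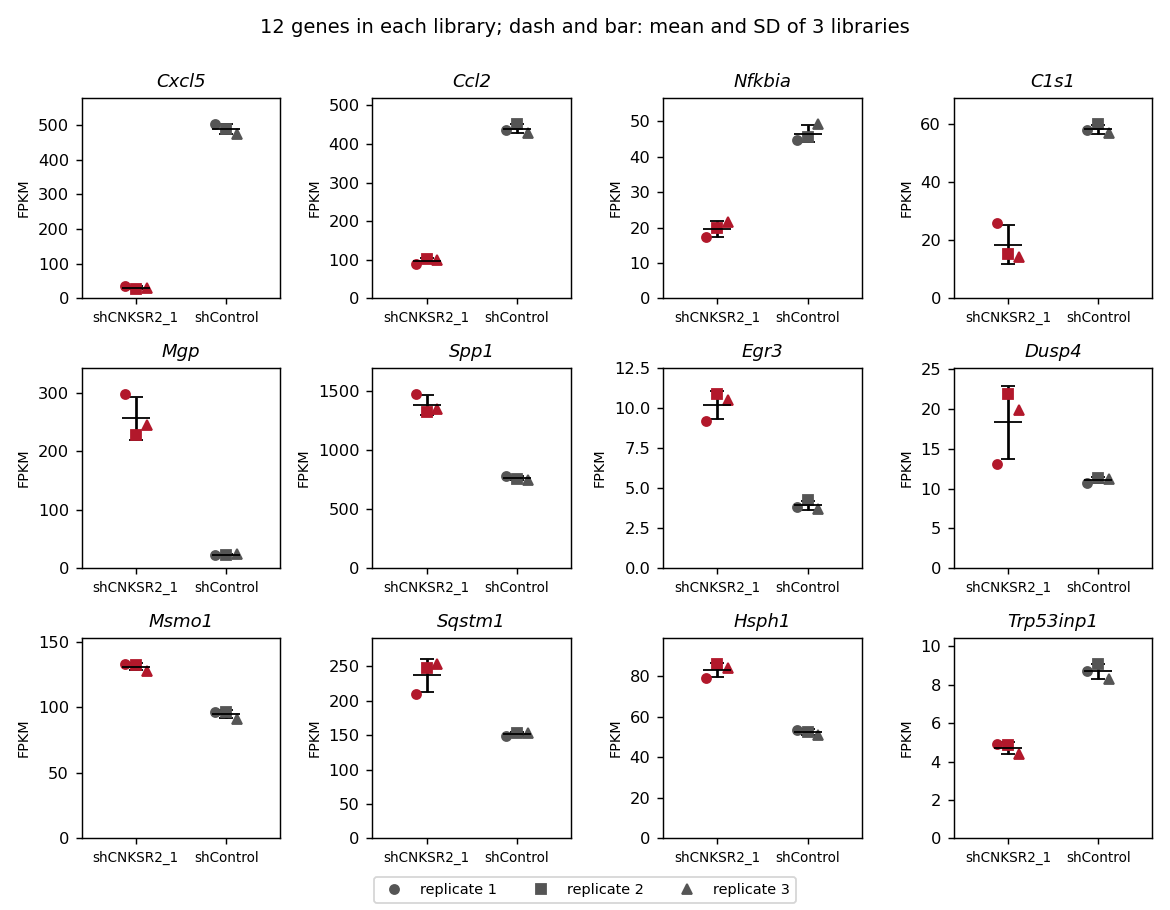
FPKM of 12 named genes in each library, on linear axes from 0, with circles, squares and triangles for replicates 1, 2 and 3 and a dash with bars for the mean and SD of 3 libraries. The 3 shCNKSR2_1 libraries are together for Cxcl5, Ccl2, Msmo1 and Trp53inp1, while replicate 1 lies nearer to the shControl libraries for C1s1 and Dusp4.

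Feedback genes of the ERK pathway included 12 higher and 0 lower genes among 19, with a median of 0.32. Dusp5, a nuclear phosphatase of ERK, had 18.1, 24.7 and 24.5 FPKM with shCNKSR2_1, against 9.25, 11.2 and 10.9 FPKM with shControl (1.02 ± 0.11, adjusted p = 7.94e-05). Spry4, an inhibitor of receptor signalling to Ras, had 3.46, 4.53 and 4.25 FPKM with shCNKSR2_1, against 2.23, 2.32 and 2.13 FPKM with shControl (0.65 ± 0.07, adjusted p = 6.31e-05). Dusp4, another nuclear phosphatase of the ERK family, had 13.1, 21.8 and 19.9 FPKM with shCNKSR2_1, against 10.7, 11.3 and 11.2 FPKM with shControl (0.65 ± 0.13, adjusted p = 0.00404). No shCNKSR2_1 library overlapped the shControl libraries, but replicate 1 was lowest in each and for Dusp4 rose little above them. Etv5, an ETS factor induced by ERK, rose by 0.77. Leaving out replicate 1 gave 15 higher members, and replicate 1 alone gave 10. The AP-1 motif TGANTCA, on both strands, was found in 0 of 15 of these promoters and in 5.64% of all.

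Transcription factor genes of the AP-1, Egr and Nr4a families, which respond to growth factors within minutes, had 9 of 19 members higher and 3 lower. The number that fell was 2 without shCNKSR2_1 replicate 1 or 3 and 1 without any other library or under median-ratio rescaling. Egr3, a zinc finger factor, had 9.19, 10.9 and 10.5 FPKM with shCNKSR2_1, against 3.80, 4.25 and 3.72 FPKM with shControl (1.18 ± 0.06, adjusted p = 2.91e-07). Atf3, a stress-induced partner of AP-1, had 4.10, 4.73 and 4.60 FPKM with shCNKSR2_1, against 1.55, 1.87 and 1.71 FPKM with shControl (1.01 ± 0.06, adjusted p = 5.70e-07). Nr4a1, an orphan nuclear receptor, had 18.1, 15.5 and 17.1 FPKM with shCNKSR2_1, against 7.89, 8.32 and 8.99 FPKM with shControl (0.93 ± 0.07, adjusted p = 3.19e-06). Every library of shCNKSR2_1 was above every library of shControl for them, and its replicates were alike. Nr4a2, a relative of Nr4a1, rose by 0.68. Junb, an AP-1 subunit, fell, with 23.7, 21.2 and 24.7 FPKM with shCNKSR2_1, against 33, 33.2 and 37.2 FPKM with shControl (-0.55 ± 0.06, adjusted p = 9.95e-05).

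Secreted growth factors counted 12 higher and 9 lower of 28. Hbegf, a ligand of the EGF receptor, had 11.7, 16.9 and 15.2 FPKM with shCNKSR2_1, against 6.78, 7.33 and 6.53 FPKM with shControl (0.97 ± 0.10, adjusted p = 4.21e-05). Il11, a cytokine of the interleukin 6 family, had 5.17, 6.65 and 6.20 FPKM with shCNKSR2_1, against 2.74, 3.16 and 3.24 FPKM with shControl. Ptn, the heparin-binding factor pleiotrophin, had 39.2, 26.1 and 27.2 FPKM with shCNKSR2_1, against 18.1, 17.3 and 18.02 FPKM with shControl (0.74 ± 0.12, adjusted p = 0.000864). Replicate 1 was the lowest shCNKSR2_1 library for Hbegf and Il11 and the highest for Ptn. Angptl4, a secreted inhibitor of lipoprotein lipase, fell, with 5.53, 8.67 and 8.03 FPKM with shCNKSR2_1, against 16.6, 15.5 and 17 FPKM with shControl (-1.06 ± 0.12, adjusted p = 8.73e-05). The neuropeptide Vip, which is no member of that list, was the second farthest gene upward, with 13.7, 9.69 and 11.7 FPKM with shCNKSR2_1, against 2.32, 2.13 and 2.50 FPKM with shControl (1.93 ± 0.09, adjusted p = 1.98e-07).

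Receptor tyrosine kinases moved mostly downward, 9 of 21 lower and 2 higher. Ddr1, a receptor for collagen, had 12.2, 11.8 and 12.9 FPKM with shCNKSR2_1, against 18.1, 17.1 and 20.1 FPKM with shControl (-0.55 ± 0.06, adjusted p = 4.30e-05), with no overlap between the groups. Epha2, an ephrin receptor, was among the 2 that passed upward, but its groups overlapped, and its call was lost without any 1 of shCNKSR2_1 replicates 2 and 3 and shControl replicates 1 and 2 (adjusted p from 0.0705 to 0.0809). Insulin-like growth factors and their binding proteins went both ways, 4 of 14 higher and 5 lower. Igfbp4, a binding protein that holds the factors inactive, had 9.69, 4.74 and 4.48 FPKM with shCNKSR2_1, against 2.37, 2.45 and 2.46 FPKM with shControl (1.02 ± 0.19, adjusted p = 0.00253). Replicate 1 was by far the highest library in Igfbp4, and without it the difference was 0.71 (adjusted p = 5.59e-06). Igfbp6, which favours Igf2, rose by 0.48. Igfbp7, a matrix-bound relative, had 39.4, 32.1 and 36.9 FPKM with shCNKSR2_1, against 57.7, 57.7 and 58.3 FPKM with shControl (-0.67 ± 0.07, adjusted p = 3.09e-05).

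Genes of TGF-beta and BMP signalling fell in 17 of 38 cases and rose in 6. Ltbp2, a latent TGF-beta binding protein of the matrix, had 12.8, 15.8 and 16.02 FPKM with shCNKSR2_1, against 30.8, 31.3 and 34.5 FPKM with shControl (-1.07 ± 0.07, adjusted p = 2.83e-06). Nbl1, a secreted BMP antagonist, had 8.26, 7.43 and 7.90 FPKM with shCNKSR2_1, against 15.8, 15.7 and 17.8 FPKM with shControl (-0.97 ± 0.06, adjusted p = 1.13e-06). Inhba, the subunit of activin A, moved up, with 10.2, 13.8 and 11.5 FPKM with shCNKSR2_1, against 4.66, 4.93 and 5.12 FPKM with shControl (1.11 ± 0.08, adjusted p = 3.29e-06). The groups were well apart for each of them. Smad6, an inhibitory Smad, fell by 0.68. Notch genes had 7 of 17 members lower and 3 higher, with the co-activator Maml2 at -0.45 and the target Hes1, a repressor, at 0.46. With the trend among neighbouring genes on the chromosome removed, 4 Notch genes were lower and 4 higher.

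Of 11 Hedgehog genes 4 fell and 1 rose, and the number that fell was 7 without shCNKSR2_1 replicate 1 and 2 with the neighbourhood trend removed. Kif7, a ciliary kinesin of the pathway, fell by 0.38, and Sufu, which holds back the GLI factors, by 0.25. Genes of the YAP and TEAD pathway fell in 8 of 25 cases, 5 without shControl replicate 1, and rose in 4. Of the named targets of the pathway, Ctgf and Ankrd1 rose and Amotl2 fell. Ctgf, a matricellular growth factor modulator, had 70.3, 74.9 and 75.4 FPKM with shCNKSR2_1, against 51.5, 58.6 and 54 FPKM with shControl (0.42 ± 0.05, adjusted p = 0.000119). Ankrd1, a muscle ankyrin repeat protein, rose by 0.40, and Tead4, a DNA-binding factor of the pathway, by 0.58. Amotl2, an angiomotin that holds YAP in the cytoplasm, had 41.3, 37.4 and 40.95 FPKM with shCNKSR2_1, against 56.9, 56.8 and 62.8 FPKM with shControl (-0.55 ± 0.05, adjusted p = 2.15e-05).

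Guidance cues and their receptors included 7 higher and 7 lower genes among 24, and 2 secreted semaphorins moved in opposite directions. Sema3a, a repellent of axons and endothelial cells, had 11.2, 11.2 and 10.7 FPKM with shCNKSR2_1, against 4.88, 5.12 and 4.82 FPKM with shControl (1.02 ± 0.04, adjusted p = 3.05e-08). Sema3c, of the same class, had 1.30, 1.70 and 1.36 FPKM with shCNKSR2_1, against 9.80, 8.86 and 8.59 FPKM with shControl (-2.04 ± 0.08, adjusted p = 3.42e-08). The replicates of each group were close together in both. Nrp2, a semaphorin receptor, had 21.7, 24.7 and 23.9 FPKM with shCNKSR2_1, against 30.6, 31.6 and 31.4 FPKM with shControl (-0.40 ± 0.05, adjusted p = 9.44e-05). Unc5b, a netrin receptor, fell by 0.55, a call lost without shControl replicate 3 (-0.49, adjusted p = 0.0538).

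Mgp, a matrix protein that inhibits calcification, rose more than any other gene. It had 298, 227 and 245 FPKM with shCNKSR2_1, against 22.7, 23.5 and 24.3 FPKM with shControl (3.39 ± 0.08, adjusted p = 5.23e-10). Spp1, the secreted phosphoprotein osteopontin, had 1471, 1322 and 1342 FPKM with shCNKSR2_1, against 782, 756 and 745 FPKM with shControl (0.85 ± 0.05, adjusted p = 4.90e-07). Together with the transcription factors Runx2 (0.19) and Sox9 (0.33) they made up all 4 chondrocyte and osteoblast markers in the table, of 13 listed, and each rose. Sox9 did not pass with replicate 1 as the only shCNKSR2_1 library (0.19, adjusted p = 0.0524). The summed level of the 4 was 1605 to 1818 FPKM with shCNKSR2_1 and 813 to 847 FPKM with shControl. Other defining markers of those cells, such as Acan, Col2a1 and Sp7, were not among the measured genes.

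Elastic fibre and matricellular genes had 7 of 23 members higher and 4 lower, and 8 higher and 6 lower without shCNKSR2_1 replicate 1. Fn1, the adhesive glycoprotein fibronectin, had 760.0, 708 and 698 FPKM with shCNKSR2_1, against 468, 474 and 496 FPKM with shControl (0.59 ± 0.04, adjusted p = 2.02e-06). Wisp2, a CCN family protein, went down, with 20.2, 12.9 and 13.8 FPKM with shCNKSR2_1, against 39.1, 37.1 and 41.04 FPKM with shControl (-1.29 ± 0.12, adjusted p = 2.54e-05). Fibrillar collagens and their enzymes rose in 10 of 29 cases. The type VI collagen chains rose, Col6a1 by 0.42 and Col6a2 by 0.48, and the fibril-associated Col12a1 by 0.51. Col6a1 had 181, 144 and 155 FPKM with shCNKSR2_1, against 117, 115 and 124 FPKM with shControl, so that the groups were apart and replicate 1 was highest. Members that fell numbered 7. Without shCNKSR2_1 replicate 1, 10 fell and 10 rose. Those that fell were 3 without shCNKSR2_1 replicate 2 or shControl replicate 3 and 4 without shControl replicate 1 or under median-ratio rescaling. Plod2, a lysyl hydroxylase of collagen, was among them at -0.38, while its relative Plod3 rose by 0.40. The list's median was 0.14 in replicate 1, -0.11 in replicate 2 and -0.03 in replicate 3. Dcn, the small proteoglycan decorin that binds collagen, had 39.9, 28.8 and 26.4 FPKM with shCNKSR2_1, against 169, 190.0 and 168 FPKM with shControl (-2.46 ± 0.12, adjusted p = 1.94e-07).

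Proteases of the matrix and their inhibitors had 11 of 29 members lower and 8 higher. Plau, the protease urokinase, had 14.03, 14.6 and 13.6 FPKM with shCNKSR2_1, against 7.93, 7.43 and 7.87 FPKM with shControl (0.78 ± 0.04, adjusted p = 3.81e-07). Plaur, its receptor, had 60.4, 92.3 and 88.04 FPKM with shCNKSR2_1, against 43.4, 46.2 and 50.7 FPKM with shControl (0.75 ± 0.13, adjusted p = 0.00175). Adamts7, a metalloprotease, had 1.57, 1.94 and 1.96 FPKM with shCNKSR2_1, against 4.47, 4.59 and 4.88 FPKM with shControl (-1.004 ± 0.06, adjusted p = 1.28e-06). Urokinase was level among the shCNKSR2_1 libraries, while its receptor was lower in replicate 1 than in replicates 2 and 3. Mmp11, the protease stromelysin 3, fell by 0.66.

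Adhesion genes also split. Of 9 integrins 4 rose and 2 fell, with 2 higher without shCNKSR2_1 replicate 2 or shControl replicate 1 or 3. Itga3, a laminin receptor subunit, had 9.54, 9.89 and 10.6 FPKM with shCNKSR2_1, against 6.73, 6.51 and 7.24 FPKM with shControl (0.49 ± 0.05, adjusted p = 4.44e-05). Itga8, whose ligands include osteopontin, rose by 0.65. Itgav, a subunit shared by several receptors of fibronectin and vitronectin, fell by 0.23. Cadherins, protocadherins and other adhesion molecules fell in 11 of 35 cases, 7 without shCNKSR2_1 replicate 2 or 3 and 7 with the neighbourhood trend removed, and rose in 8. Pcdh7, a protocadherin, had 19.7, 22.7 and 20.5 FPKM with shCNKSR2_1, against 39.3, 38.99 and 39.3 FPKM with shControl (-0.87 ± 0.05, adjusted p = 4.90e-07). Pvrl2, the adhesion molecule nectin-2, fell by 0.68, and Alcam, an immunoglobulin adhesion molecule, rose by 0.65.

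Actin, contractile and SRF-MRTF target genes counted 20 higher and 5 lower of 38, with 15 to 20 higher when any 1 library was left out and 3 lower without shControl replicate 3. Myl9, a myosin light chain, had 5.95, 4.98 and 5.13 FPKM with shCNKSR2_1, against 1.71, 2.32 and 2.65 FPKM with shControl (0.99 ± 0.11, adjusted p = 5.96e-05). Csrp2, a LIM protein of smooth muscle, had 69.03, 79.1 and 79.05 FPKM with shCNKSR2_1, against 53.1, 46.4 and 52.04 FPKM with shControl (0.57 ± 0.06, adjusted p = 7.69e-05). Fhl2, a LIM protein that responds to actin, had 35.9, 40.4 and 39.3 FPKM with shCNKSR2_1, against 29.1, 28.7 and 27.9 FPKM with shControl. The groups were apart in all of them. Filip1l, a filamin-interacting protein, fell by 0.56. Gas2, which binds actin filaments and microtubules and is in no list above, had 36.3, 31.5 and 31.6 FPKM with shCNKSR2_1, against 13.2, 12.9 and 12.5 FPKM with shControl (1.30 ± 0.07, adjusted p = 2.88e-07).

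Of 12 tubulins 4 rose and 0 fell, with a median near 0, and under quantile normalization or removal of the GC trend 2 fell. Tuba4a, an alpha tubulin, had 20.1, 21.8 and 23.6 FPKM with shCNKSR2_1, against 12.8, 13.2 and 13.9 FPKM with shControl (0.67 ± 0.05, adjusted p = 7.00e-06). Tubulin genes are close in sequence, so fragments may be split between them. Intermediate filament genes numbered 6, of which 3 were higher and 1 lower. Vim, the filament protein of mesenchymal cells, had 1391, 1640.0 and 1580.0 FPKM with shCNKSR2_1, against 1179, 1224 and 1223 FPKM with shControl (0.34 ± 0.06, adjusted p = 0.000916). Lmna, of the nuclear lamina, rose by 0.29. Annexins and S100 proteins, which bind calcium and membranes, had 7 of 13 members higher and 2 lower, with 0 lower without shControl replicate 2 and 1 without shCNKSR2_1 replicate 3 or shControl replicate 1. Anxa5 had 272, 285 and 287 FPKM with shCNKSR2_1, against 203, 206 and 207 FPKM with shControl (0.45 ± 0.03, adjusted p = 2.67e-06), and Anxa6 rose by 0.34 with the 3 shCNKSR2_1 libraries at 41.1, 40.7 and 40.9 FPKM. Anxa3 fell by 0.18, a call lost without shControl replicate 2 (adjusted p = 0.0525) and with the neighbourhood trend removed (-0.09, adjusted p = 0.129).

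Genes of cholesterol synthesis and uptake counted 22 higher and 2 lower of 27, with a median of 0.25. Msmo1, a sterol demethylation enzyme, had 133, 133 and 128 FPKM with shCNKSR2_1, against 96.5, 96.4 and 91.04 FPKM with shControl (0.47 ± 0.03, adjusted p = 3.36e-06). Insig1, which retains the pathway's activator in the endoplasmic reticulum, had 61.4, 57.6 and 56.9 FPKM with shCNKSR2_1, against 43.4, 43.2 and 43.2 FPKM with shControl. In these genes all 3 shCNKSR2_1 libraries were close together and above the controls. Pmvk, a kinase of the mevalonate pathway, rose by 0.51. Replicate 1 alone gave 20 higher members and a median of 0.34. Scap, the escort of the activator, was among the 2 that passed downward (-0.18), a call lost without shCNKSR2_1 replicate 1 or 2 or any shControl replicate (adjusted p from 0.0608 to 0.139), with only the 6 libraries compared, under median-ratio rescaling and quantile normalization, and with the neighbourhood trend removed (-0.09, adjusted p = 0.207). The number that fell was 0 without shControl replicate 1 or 3, under median-ratio rescaling and with the neighbourhood trend removed, and 1 without any other library. Of 26 genes of fatty acid synthesis and storage, 5 rose and 4 fell, a share called of 34.6%, near the 32.8% of all genes. With the GC trend removed 8 of them rose, beside 20.5% of all genes.

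**Figure D3:**
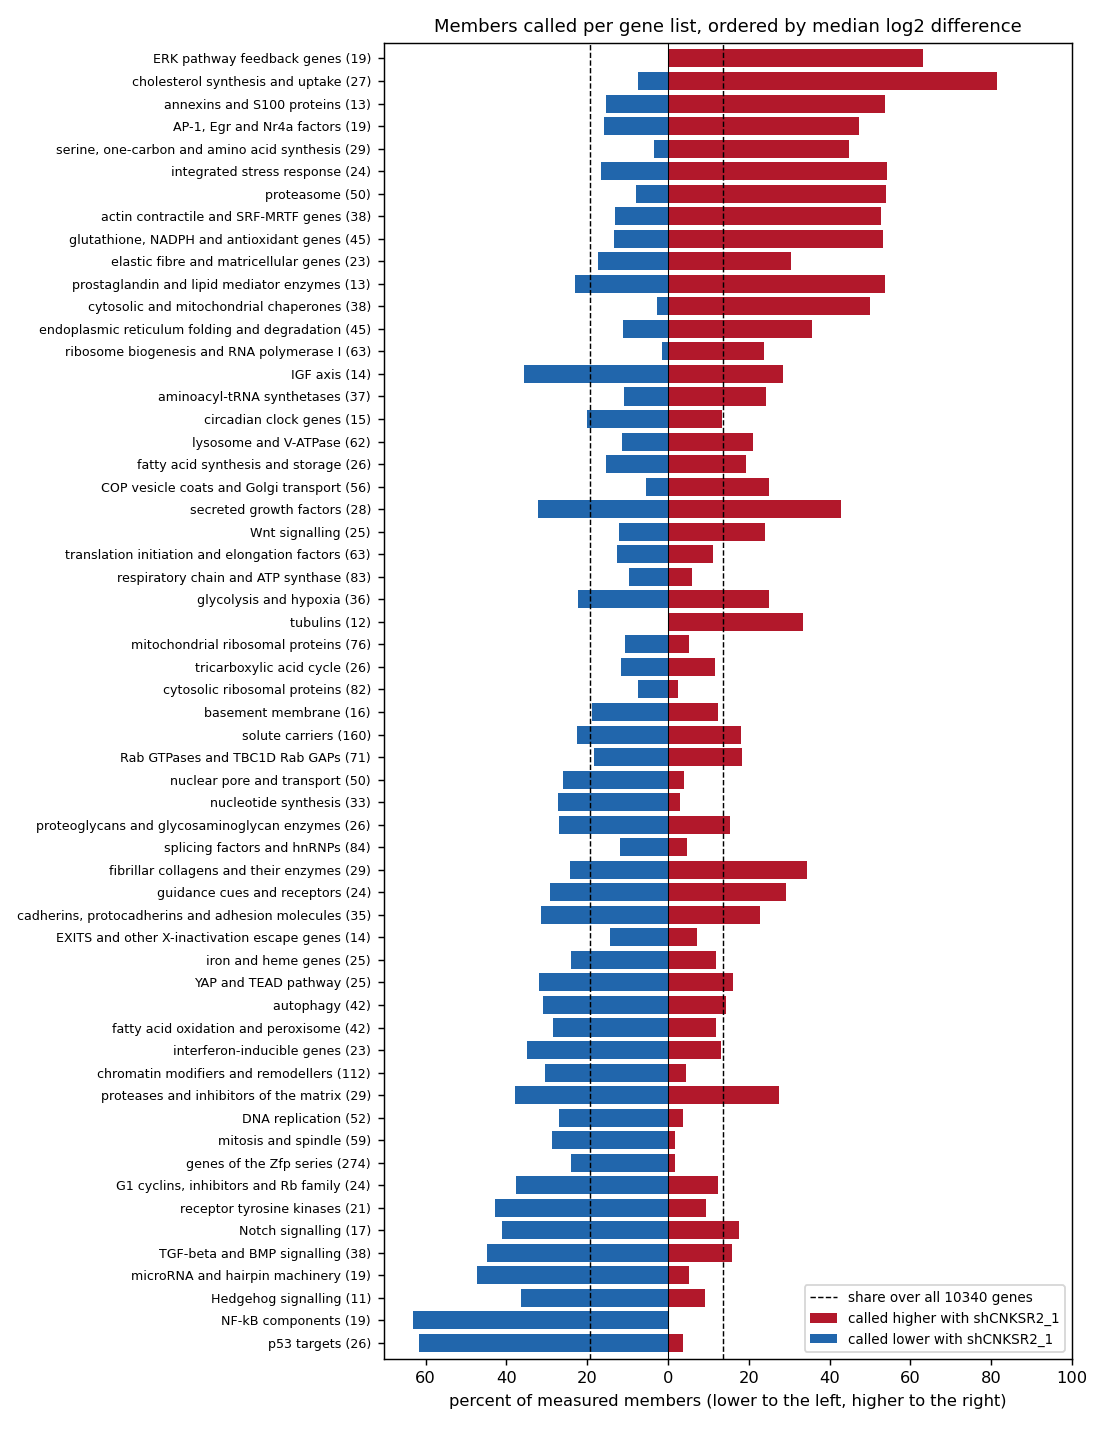
Percent of measured members that were lower (blue, to the left) and higher (red, to the right) with shCNKSR2_1, for lists of functional genes with at least 10 measured members, whose number stands in brackets. Dashed lines mark the shares over all 10340 genes, 13.6% higher and 19.3% lower, and lists are ordered by median difference from ERK feedback genes at the top to p53 targets at the bottom.

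Several groups of protein quality control held many genes that rose by small amounts. Proteasome genes included 27 higher and 4 lower genes among 50, 2 lower without shControl replicate 2 and 1 with the neighbourhood trend removed, with a median of 0.15 that stayed between 0.12 and 0.18 under median-ratio rescaling, quantile normalization and removal of the GC trend. Psmd11, a subunit of the regulatory particle, had 106, 121 and 118 FPKM with shCNKSR2_1, against 88.6, 90.2 and 87.5 FPKM with shControl (0.36 ± 0.05, adjusted p = 0.000209). Psma5, of the core particle, had 167, 195 and 185 FPKM with shCNKSR2_1, against 152, 144 and 148 FPKM with shControl. Psmd10, an assembly chaperone of the regulatory particle, went down, with 14.2, 14.6 and 14.6 FPKM with shCNKSR2_1, against 20.3, 20.7 and 19.6 FPKM with shControl (-0.46 ± 0.04, adjusted p = 2.75e-05). Replicate 1 was the lowest of the shCNKSR2_1 libraries for these 3 genes and still above shControl for Psmd11 and Psma5. Chaperones of the cytosol and mitochondria had 19 of 38 members higher and 1 lower, 3 under quantile normalization. Hsph1, of the HSP110 family, had 79.4, 86.05 and 84.2 FPKM with shCNKSR2_1, against 53.7, 52.3 and 50.9 FPKM with shControl (0.66 ± 0.04, adjusted p = 1.13e-06). Cryab, a small heat shock protein, had 164, 234 and 235 FPKM with shCNKSR2_1, against 125, 130.1 and 133 FPKM with shControl (0.68 ± 0.11, adjusted p = 0.00105). The stress-induced pair Hspa1a and Hspa1b rose by 0.66 and 0.69, though fragments are hard to assign between them. Folding and degradation genes of the endoplasmic reticulum counted 16 higher and 5 lower of 45, with 2 to 5 lower when any 1 library was left out. Nploc4, a cofactor of the degradation ATPase, rose by 0.34, and Atf6, a sensor of unfolded protein, by 0.25.

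Antioxidant genes of glutathione and NADPH included 24 higher and 6 lower genes among 45. Hmox1, heme oxygenase, had 114, 175 and 164 FPKM with shCNKSR2_1, against 84.5, 90.04 and 88.7 FPKM with shControl (0.75 ± 0.12, adjusted p = 0.000964). Sqstm1, the autophagy receptor p62, had 209, 248 and 253 FPKM with shCNKSR2_1, against 149, 153 and 154 FPKM with shControl (0.63 ± 0.07, adjusted p = 5.70e-05). Sod3, the extracellular superoxide dismutase, had 13.3, 9.88 and 11.9 FPKM with shCNKSR2_1, against 6.85, 6.20 and 6.91 FPKM with shControl (0.72 ± 0.08, adjusted p = 0.000111). Replicate 1 was the lowest shCNKSR2_1 library for Hmox1 and Sqstm1 and the highest for Sod3. Mgst1, a membrane glutathione transferase, fell, with 31.8, 30.04 and 29.6 FPKM with shCNKSR2_1, against 63.4, 59.01 and 57.9 FPKM with shControl (-0.96 ± 0.04, adjusted p = 1.05e-07). Autophagy genes as a list held 13 lower and 6 higher members of 42, and 8 of each with the trend among neighbouring genes removed. Wipi1, a protein of early autophagosomes, had 12.3, 11.9 and 11.3 FPKM with shCNKSR2_1, against 21.01, 19.2 and 22 FPKM with shControl (-0.76 ± 0.05, adjusted p = 2.64e-06). Gabarapl1 and Gabarapl2, which coat autophagosomes, rose by 0.40 and 0.41.

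Genes of serine, one-carbon and amino acid synthesis had 13 of 29 members higher and 1 lower. Without shCNKSR2_1 replicate 1, 19 were higher and 1 lower. The list's median against the shControl mean was 0.11 in replicate 1, 0.20 in replicate 2 and 0.255 in replicate 3. Mthfd2, a mitochondrial folate enzyme, had 63.2, 76.5 and 74.6 FPKM with shCNKSR2_1, against 50.3, 50.7 and 51.7 FPKM with shControl (0.48 ± 0.06, adjusted p = 0.000184). Psat1, of serine synthesis, had 246, 249.4 and 268 FPKM with shCNKSR2_1, against 201, 198 and 205 FPKM with shControl (0.34 ± 0.04, adjusted p = 9.65e-05). Asns, asparagine synthetase, had 109.9, 120.3 and 119 FPKM with shCNKSR2_1, against 93.7, 93.2 and 92.5 FPKM with shControl. The groups were apart and replicate 1 was the lowest shCNKSR2_1 library in each. Odc1, which makes polyamines, fell by 0.28. Genes of the integrated stress response, a list that shares Mthfd2 and Psat1, rose in 13 of 24 cases, 8 without shCNKSR2_1 replicate 3 or shControl replicate 1 or 2 and 6 in replicate 1 alone. Nupr1, a stress-induced nuclear protein, rose by 0.38. Cebpb, a factor also active in inflammation, fell, with 48.4, 31.9 and 38.9 FPKM with shCNKSR2_1, against 58.5, 58.4 and 65.3 FPKM with shControl (-0.62 ± 0.12, adjusted p = 0.00235). Members that fell numbered 4. They were 1 without shCNKSR2_1 replicate 1 or 2 or shControl replicate 3, 2 without shControl replicate 1 or 2, and 1 with the replicate number as a block or under median-ratio rescaling. Quantile normalization and removal of the neighbourhood trend gave 2.

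Genes of glycolysis and hypoxia went both ways, 9 of 36 higher and 8 lower, with 5 lower without shCNKSR2_1 replicate 3. Adm, a peptide hormone induced by low oxygen, had 7.06, 5.94 and 7.49 FPKM with shCNKSR2_1, against 16.2, 15.3 and 15.97 FPKM with shControl (-1.11 ± 0.07, adjusted p = 1.39e-06). Ndrg1, another hypoxia target, had 21.8, 20.6 and 21.5 FPKM with shCNKSR2_1, against 15.5, 15.3 and 15.2 FPKM with shControl (0.45 ± 0.04, adjusted p = 7.06e-06). Ldhb, a lactate dehydrogenase subunit, rose by 0.45. Both targets of low oxygen thus moved in opposite directions. Genes of the respiratory chain stood under the share of all genes, with 5 of 83 higher and 8 lower, or 15.7% called. The count of higher members was 3 without shCNKSR2_1 replicate 3 or shControl replicate 1 or 2, 8 without shControl replicate 3 or under median-ratio rescaling, 9 with the GC trend removed and 10 with the neighbourhood trend removed, which left 4 lower. Atp5h, a subunit of ATP synthase, had 396, 385 and 408 FPKM with shCNKSR2_1, against 473, 489 and 473 FPKM with shControl (-0.27 ± 0.03, adjusted p = 0.000173), and with the trend among neighbouring genes removed its difference was -0.06 (adjusted p = 0.191).

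Targets of p53 fell in 16 of 26 cases and rose in 1, with a median of -0.17. Fas, the death receptor, had 3.66, 3.03 and 2.89 FPKM with shCNKSR2_1, against 20.3, 20.4 and 18.6 FPKM with shControl (-2.31 ± 0.07, adjusted p = 9.00e-09). Trp53inp1, a nuclear protein that promotes p53 activity, had 4.89, 4.88 and 4.37 FPKM with shCNKSR2_1, against 8.69, 9.08 and 8.31 FPKM with shControl (-0.76 ± 0.06, adjusted p = 4.48e-06). Zmat3, an RNA-binding protein, had 9.70, 9.84 and 9.95 FPKM with shCNKSR2_1, against 13.7, 13.6 and 13.8 FPKM with shControl (-0.44 ± 0.03, adjusted p = 3.19e-06). The 3 shCNKSR2_1 libraries were close together in each and far from the controls. Btg2, an antiproliferative target, rose, with 9.78, 6.86 and 6.89 FPKM with shCNKSR2_1, against 4.82, 5.66 and 5.63 FPKM with shControl (0.46 ± 0.11, adjusted p = 0.00783). Leaving out any 1 library gave 12 to 16 lower members, and 3 were higher without shCNKSR2_1 replicate 1.

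Genes of the cell cycle were called lower more often than higher, as was also so over all genes (19.3% lower and 13.6% higher). Of 24 G1 cyclins, inhibitors and Rb family genes 9 fell and 3 rose, the count that rose being 0 to 4 when any 1 library was left out. The count of lower members was 4 without shCNKSR2_1 replicate 2, 5 without shControl replicate 1 or 2 and 5 under median-ratio rescaling. Cdk6, a G1 kinase, had 3.77, 4.14 and 3.76 FPKM with shCNKSR2_1, against 6.16, 5.61 and 5.57 FPKM with shControl (-0.47 ± 0.05, adjusted p = 5.60e-05). Tfdp2, a partner of E2F factors, fell by 0.39, and Max, the partner of Myc, by 0.27. Ccnd1, cyclin D1, rose by 0.24 with all 3 replicates but was 0.02 in replicate 1 alone, and its call was lost without any 1 of 5 libraries, all but shCNKSR2_1 replicate 1 (adjusted p from 0.0564 to 0.094). DNA replication genes fell in 14 of 52 cases, 9 without shControl replicate 1, and mitosis genes in 17 of 59, 10 without shCNKSR2_1 replicate 2, 9 without shControl replicate 1 and 11 under median-ratio rescaling. Over all genes 19.3% were lower, and 15.1% under median-ratio rescaling. The share called was 30.8% for DNA replication and 30.5% for mitosis, near the 32.8% of all genes.

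Machinery of microRNAs and hairpins, which also processes the hairpins of both groups, had 9 of 19 members lower and 1 higher. Mov10, an RNA helicase of silencing complexes, had 7.82, 6.76 and 7.07 FPKM with shCNKSR2_1, against 9.54, 9.48 and 10.1 FPKM with shControl (-0.38 ± 0.05, adjusted p = 0.000403). Zcchc11, a terminal uridyl transferase that acts on microRNA precursors, had 11.9, 11.3 and 10.97 FPKM with shCNKSR2_1, against 14.9, 15.03 and 14.3 FPKM with shControl (-0.35 ± 0.04, adjusted p = 9.49e-05). Tnrc6b, a partner of Argonaute, fell by 0.24. The groups were apart in each. Genes of the Zfp series fell in 66 of 274 cases and rose in 5, with 38 lower without shCNKSR2_1 replicate 3, 37 without shControl replicate 1 and 40 under quantile normalization, where 12 rose. Their share called was 25.9%, under the 32.8% of all genes, of which 19.3% were lower. Chromatin modifiers fell in 34 of 112 cases, 22 without shCNKSR2_1 replicate 3, 19 without shControl replicate 2 and 21 under median-ratio rescaling. Their share called, 34.8%, was near that of all genes. Of 14 genes that escape X inactivation, the class to which the study assigns Cnksr2, 2 fell and 1 rose, and 4 fell without shCNKSR2_1 replicate 1 or shControl replicate 3. The share called in that class was 21.4%, under that of all genes. The deacetylase gene Hdac8 had 5.66, 5.50 and 5.35 FPKM with shCNKSR2_1, against 6.69, 6.77 and 6.90 FPKM with shControl (-0.26 ± 0.04, adjusted p = 0.000644). Ogt, which adds sugar residues to nuclear proteins, fell by 0.26. Utp14a, of ribosome assembly, rose by 0.15, a call lost without shCNKSR2_1 replicate 2 or 3 or shControl replicate 2 or 3 (adjusted p from 0.0597 to 0.0771).

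Ribosomal and splicing genes also stood under the share of all genes. Cytosolic ribosomal protein genes counted 2 higher and 6 lower of 82, or 9.76% called beside 32.8% of all genes, with 2 lower without shControl replicate 1, 3 without shControl replicate 2 and 10 under quantile normalization. Rpl19 had 1773, 1774 and 1879 FPKM with shCNKSR2_1, against 2072, 2037 and 2123 FPKM with shControl (-0.20 ± 0.04, adjusted p = 0.00355). Rpl23 fell by 0.20. Of the 6 that fell 4 lie on chromosome 11, and with the trend among neighbouring genes removed 0 fell, with Rpl19 and Rpl23 both at 0.02. Rpl34 rose, with 41.6, 50.7 and 46.2 FPKM with shCNKSR2_1, against 35.9, 36.5 and 36.1 FPKM with shControl (0.34 ± 0.06, adjusted p = 0.00124). Mitochondrial ribosomal protein genes included 4 higher and 8 lower genes among 76, with 3 to 5 lower without shCNKSR2_1 replicate 2 or any shControl replicate. With the neighbourhood trend removed 8 were higher and 5 lower, and with the GC trend removed 9 were higher. Mrpl45 had 17.3, 16.9 and 17.03 FPKM with shCNKSR2_1, against 22.4, 22.6 and 22.2 FPKM with shControl (-0.37 ± 0.04, adjusted p = 4.03e-05), and Mrps6 rose by 0.33. Splicing factors and hnRNPs had 4 of 84 members higher and 10 lower, 3 of them under median-ratio rescaling and 4 without shControl replicate 2, 5 without shCNKSR2_1 replicate 3 or shControl replicate 1. The number that rose was 8 without shCNKSR2_1 replicate 1, 9 with the GC trend removed, 10 with the neighbourhood trend removed and 2 without shCNKSR2_1 replicate 2 or shControl replicate 2. Mbnl1, a regulator of alternative splicing, had 85.7, 79.2 and 74.3 FPKM with shCNKSR2_1, against 65.3, 66.7 and 61.7 FPKM with shControl (0.30 ± 0.05, adjusted p = 0.0015).

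Differences also followed position on the chromosomes. On chromosome 9, 207 of 561 genes were lower (36.9%) and 42 higher, with a median of -0.09. On chromosome 11, 256 of 842 were lower (30.4%) and 97 higher, and on chromosome 6, 132 of 498 were higher (26.5%) and 51 lower. The shares over all genes were 19.3% lower and 13.6% higher. Smaller departures were seen on others, such as chromosome 2 (24.45% lower, 9.05% higher) and chromosome 1 (21.1% higher, 15.6% lower). Chromosomes were named from RefSeq by gene symbol. The medians of the 3 shCNKSR2_1 libraries, each against the shControl mean, were -0.09, -0.10 and -0.08 on chromosome 9 and 0.05, 0.04 and 0.05 on chromosome 6, so that no library stood out. The run of 41 neighbouring measured genes with the lowest median, of 9502 runs, was that from Sumo2 to Tk1 on chromosome 11. In it 29 genes were lower and 0 higher, with a median of -0.25, and with -0.23, -0.27 and -0.22 in the 3 libraries. What these regions have in common was not tested. 

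**Figure D4:**
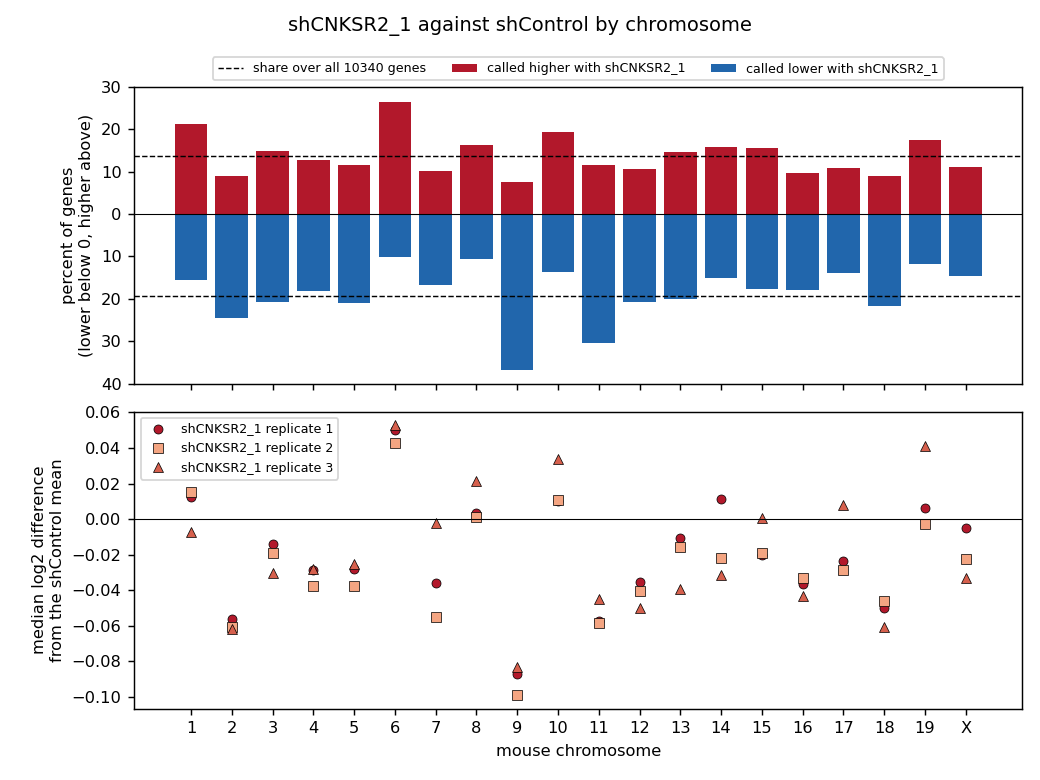
Upper panel: percent of genes on each mouse chromosome that were higher (red) and lower (blue) with shCNKSR2_1, with dashed lines at the shares over all genes. Lower panel: median log2 difference of each shCNKSR2_1 library from the shControl mean. Chromosome 9 is lowest and chromosome 6 highest in all 3 libraries.

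Replicate 1 of shCNKSR2_1 lay near replicates 2 and 3 in some gene groups and farther from them in others. The root mean square difference over all genes on the log2(FPKM + 1) scale was 0.148 and 0.146 between replicate 1 and replicates 2 and 3, 0.111 between replicates 2 and 3, and 0.0922 to 0.112 among the shControl libraries. From the shControl libraries replicate 1 lay 0.222 to 0.230 away and replicates 2 and 3 lay 0.244 to 0.260 away. Of the 299 genes at least 1.25-fold apart, replicate 1 was higher in 184 and lower in 115. Among them 77 were called higher with shCNKSR2_1, 68 were called lower and 154 were not called. Where the gene was called, replicate 1 lay nearer to the shControl mean in 110 and farther from it in 35.

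Set against the mean of replicates 2 and 3, the median difference of replicate 1 was -0.02 over NF-kB genes and -0.04 over p53 targets. The median of NF-kB genes against the shControl mean was -0.18 in replicate 1, -0.16 in replicate 2 and -0.19 in replicate 3. For p53 targets these medians were -0.21, -0.15 and -0.17. In genes of cholesterol synthesis the median of replicate 1 was farther from shControl (0.34, 0.25 and 0.26). In chemokines its median was slightly nearer (-1.85, -1.93 and -1.99), though Ccl2 was lowest in replicate 1. Other groups in which replicate 1 was nearer to shControl included the proteasome (0.09, 0.17 and 0.19), chaperones (0.07, 0.15 and 0.14), antioxidant genes (0.08, 0.16 and 0.19) and the integrated stress response (0.04, 0.16 and 0.22). Called higher with replicate 1 alone were 10 proteasome genes, 9 chaperones and 16 antioxidant genes, and without it 33, 25 and 28, beside 7.74% and 15.8% of all genes. In a single library a call rests on the spread of the other groups.

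**Figure D5:**
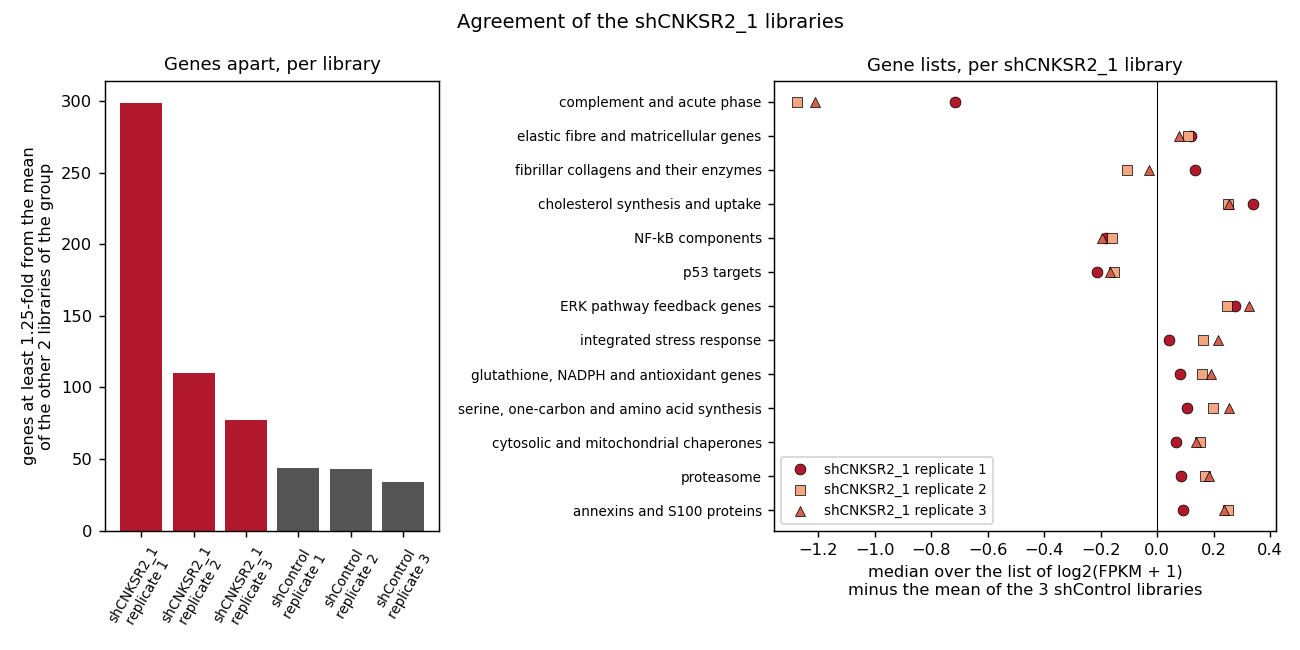
Left: number of genes at least 1.25-fold from the mean of the other 2 libraries of the group, 299, 110 and 77 for shCNKSR2_1 and 44, 43 and 34 for shControl. Right: median difference from the shControl mean over 13 gene lists, for each shCNKSR2_1 library. Replicate 1 lies nearer to 0 for complement and stress lists and together with the others for NF-kB genes and p53 targets.

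By the rule for genes in which replicate 1 was farthest from replicates 2 and 3, small nucleolar RNA genes and pseudogenes led, and none of the 12 passed the test of the groups. The 6 lowest in replicate 1 were Snord15b, Pisd-ps1, Prl2c3, Tnnt2, Snora23 and Snora64, and the 6 highest were Snora17, Snora68, Atp6v0c, Igsf10, Snora44 and Pisd-ps3. Prl2c3 belongs to a family of near-identical proliferin genes, so its fragments are hard to assign. Igsf10, an immunoglobulin superfamily protein, had 28.5, 15.4 and 13.1 FPKM with shCNKSR2_1, against 18.2, 17.6 and 17.1 FPKM with shControl. Replicate 1 lay above and the others below the shControl libraries there, and without it Igsf10 was lower (-0.29, adjusted p = 0.0173). Tnnt2, a troponin, had 3.62, 9.20 and 7.08 FPKM with shCNKSR2_1, against 3.57, 4.90 and 3.997 FPKM with shControl, with replicate 1 at the level of shControl (0.50 ± 0.22, adjusted p = 0.109).

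Further genes were chosen after their values were seen, to show the larger departures among called genes. Rasl11a, a small GTPase related to Ras, had 24.7, 12.9 and 14.8 FPKM with shCNKSR2_1, against 48.7, 50.1 and 51.7 FPKM with shControl (-1.52 ± 0.17, adjusted p = 7.72e-05). Dio2, a deiodinase that activates thyroid hormone, had 6.70, 3.81 and 3.46 FPKM with shCNKSR2_1, against 10.8, 10.3 and 9.82 FPKM with shControl (-1.04 ± 0.16, adjusted p = 0.000653). C1ra, a protease that activates C1s, had 17.7, 11.7 and 12.3 FPKM with shCNKSR2_1, against 29.6, 29.6 and 30.01 FPKM with shControl (-1.07 ± 0.12, adjusted p = 6.81e-05). Replicate 1 was between the groups in all of them. Ly6a, a surface protein induced by interferon, had 32.6, 19.8 and 19.2 FPKM with shCNKSR2_1, against 35.5, 33.7 and 36.6 FPKM with shControl, and its call was lost without shCNKSR2_1 replicate 2 or 3 or shControl replicate 1 or 3 (adjusted p from 0.0545 to 0.0745). Rgs16, which dampens G protein signals, had 24.02, 40.9 and 34.4 FPKM with shCNKSR2_1, against 19.7, 21.6 and 20.1 FPKM with shControl, with a difference of 0.22 in replicate 1 alone (adjusted p = 0.0554) and 0.85 without it (adjusted p = 1.29e-05). Ngef, a guanine nucleotide exchange factor, had 11.3, 18.1 and 18.3 FPKM with shCNKSR2_1, against 10.2, 9.85 and 9.52 FPKM with shControl, with 0.18 in replicate 1 alone (adjusted p = 0.0317) and 0.82 without it (adjusted p = 1.48e-07). For Dusp4 the values were 0.23 (adjusted p = 0.0162) and 0.86 (adjusted p = 6.55e-07).

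The remaining genes among the 15 farthest each way fell under no list above. Upward, Spon2, a secreted protein of the F-spondin family, had 33.9, 24.7 and 27.5 FPKM with shCNKSR2_1, against 12.2, 11.6 and 12.5 FPKM with shControl (1.17 ± 0.09, adjusted p = 6.06e-06). Pi15, a secreted peptidase inhibitor, rose by 1.19, Asgr1, a subunit of the asialoglycoprotein receptor, by 1.06, and Cgref1, a secreted protein with EF-hand motifs, by 1.04. The small nucleolar RNA Snora28 had 86.8, 84.5 and 131 FPKM with shCNKSR2_1, against 32.6, 24.3 and 85.6 FPKM with shControl, with groups that overlapped, and its call was lost without shCNKSR2_1 replicate 3 or shControl replicate 1 or 2 (adjusted p from 0.073 to 0.0749). Downward, Cbr2, a carbonyl reductase, had 3.95, 2.55 and 2.97 FPKM with shCNKSR2_1, against 23.6, 24.8 and 27.1 FPKM with shControl (-2.67 ± 0.10, adjusted p = 3.42e-08). U90926 had 62.99, 90.05 and 96.3 FPKM with shCNKSR2_1, against 239, 248 and 248.8 FPKM with shControl (-1.57 ± 0.13, adjusted p = 1.07e-05), with replicate 1 the lowest of all libraries.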

How the data were processed

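RNA had been prepared with Qiagen miRNeasy and made into Illumina TruSeq Stranded mRNA libraries, per the labels' protocols. The authors deposited 1 FPKM value per gene and library, made with STAR 25.1b, Cufflinks 2.2.1 and mouse build mm9, per the submitters' processing notes. The annotation and the strand setting are not given in the sources used here. The lowest value in the table was 1.00 FPKM, and column sums were 437208 to 450776. No counts were used, so depth is unknown.

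FPKM values were taken to log2(FPKM + 1), and limma 3.58.1 (R 4.3.3, eBayes with trend) fitted a mean for each of the 3 groups to all 9 libraries, leaving 6 degrees of freedom. Two-sided p-values had Benjamini-Hochberg adjustment over 10340 genes, called at an adjusted p under 0.05. On simulated data for this comparison with 10340 genes, 90% of 50 genes shifted 1.25-fold and 100% of those shifted 1.5-fold, 2-fold and 3-fold were called, with 19 false calls among 10140 unchanged genes. The simulation drew independent normal noise with each gene's own spread, the same in all groups. It held no library that stood apart and no shift shared by neighbouring genes or by libraries of the same number. Its count of false calls therefore does not carry over to these data. The p-values rest on the spread among cultures, pooled over the 3 groups. The shCNKSR2_1 libraries varied more than the shControl libraries, so the pooled spread can understate that of shCNKSR2_1.

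Gene lists, 71 in all, were counted, not tested. Described were lists with at least 4 called members and a share at least 10 points above that of all genes, lists with all of at least 4 called members in 1 direction, and lists of at least 10 members with a share 10 points or more below; a few other lists are given by counts alone. Named were the 15 called genes farthest up and down, up to 4 called members of each described list with the farthest opposite one, and the 6 highest and 6 lowest in replicate 1 against replicates 2 and 3 at a mean of at least 5 FPKM. Predicted genes were not named. Results for some items that the rule would name are not reported here. The members, lists and rules were chosen with earlier results of these data known.

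Replicate numbers come from the sample titles. Deviations from the group means correlated at 0.12, 0.18 and 0.43 between shCNKSR2_1 and shControl libraries of number 1, 2 and 3, so the numbers were taken as pairs in an alternative fit. Between libraries of unlike number the values ran from -0.275 to 0.12. The highest of these, shCNKSR2_1 replicate 2 with shControl replicate 1, equalled that of number 1, so only number 3 stood out clearly as a pair. Other alternatives were a pseudocount of 0.1 or 0.01, the exclusion of genes under a mean of 5 FPKM, no filter, median-ratio rescaling, quantile normalization, no variance trend, only the 6 libraries, each library left out and replicate 1 alone. A loess trend on transcript GC content and the median deviation of 20 genes on either side were removed in alternatives added after seeing the data. Promoters, chromosomes and gene order were taken from RefSeq, and GC content from GENCODE vM21. Matching by symbol gave GC content for 10288 genes and a chromosome for 10304.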

Additional observations from a re-analysis of the deposited data

How the results depend on the processing

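The number of genes called was 3396, and it lay between 2504 and 3894 when any 1 library was left out. With shCNKSR2_1 replicate 1 alone it was 1860, of which 800 were higher and 1060 lower, and fewer samples entered that fit. The other settings gave 2774 with only the 6 libraries compared, 2775 of 8236 with a minimum mean of 5 FPKM, 3205 with the replicate block, 3276 with quantile normalization and 4112 with the GC trend removed. At 1.5-fold the count was 231, and 304 with a pseudocount of 0.01. The higher genes were 41.4% of those called, 53.4% after median-ratio rescaling, 50.7% after quantile normalization, 51.2% with the GC trend removed and 54.1% with the neighbourhood trend removed. Of 203 named genes 191 were called, and 161 of these lost it under no alternative in which they were tested; the minimum mean of 5 FPKM left weaker genes untested. The replicate block ended 1 of the named calls, that of Snrpn (adjusted p = 0.0748). Removal of the neighbourhood trend left Rpl23 and Rpl19 at 0.02 each, by construction the part of each difference beyond the median of its neighbours. Igsf10, at 0.03 with all libraries, lay between -0.29 without shCNKSR2_1 replicate 1 and 0.24 without shCNKSR2_1 replicate 3. The table holds only genes above 1 FPKM in all 9 libraries, so a gene that crossed that level between the groups was not measured.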
